A study of Homo sapiens with 6 samples.

Results

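Creatine metabolism was examined through 8 genes: the creatine kinases CKB, CKM, CKMT1A, CKMT1B and CKMT2, the transporter SLC6A8, and the synthesis enzymes GAMT and GATM. They were picked by function from a table of 26490 gene symbols, and the set was put forward because CKB had already been seen to be lower after IRS2 knockdown. CKB was thus chosen on its measured fall in this same comparison, and its difference is given as a description without a p-value. The calls of the other members come from that comparison too and serve as description. All 8 symbols were found, and 6 of them passed the expression filter, as did 13832 genes of the whole table. CKM and GATM had too few reads to be tested.

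RNA was sequenced from SW403, an established line of human colon adenocarcinoma, with 3 control libraries labelled WT and 3 libraries of cells with IRS2 knocked down. IRS2 encodes insulin receptor substrate 2, an adaptor that links activated insulin and IGF1 receptors with intracellular kinases. All cells were grown for 24 h in DMEM with 10% fetal bovine serum and received no treatment. The sample descriptions carry the letters NS for control and KO for knockdown. The sample titles number the libraries of each group as biological replicates (bio_rep), without saying what was repeated. How IRS2 was lowered, and whether cultures within a group derive from lines made independently, is not given in the sources used here. The p-values therefore measure the spread between these cultures, which may be partly technical.

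Creatine is made from arginine and glycine by GATM, which forms guanidinoacetate, and GAMT, which methylates it, and it enters cells through SLC6A8. Creatine kinases move a phosphate between ATP and creatine. The cytosolic enzyme CKB (brain type) and CKM (muscle type) serve sites where ATP is used, while the CKMT enzymes sit between the mitochondrial membranes where ATP is exported. CKB is the cytosolic form of epithelia, including the gut, and CKB and SLC6A8 have been studied in the spread of colorectal cancer.

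Library totals ran from 11816973 to 12585013 counts in control and from 14329348 to 18114656 in knockdown, so every knockdown library was the deeper. IRS2 itself was at 33.2 ± 1.42 CPM (counts per 1000000 of the library total) in control, against 12.4 ± 0.535 CPM after knockdown (SD over 3 libraries). Of 11 colon epithelium markers, 6 passed the expression filter, of which KRT19 (log2 fold change -0.47) and EPCAM (-0.21) fell, CDX2 rose (0.14) and the other 3, KRT8 and KRT18 included, did not pass the test, while KRT20 and CDX1 had 0 reads and CDH17 averaged 0.136 CPM in control and 0.280 CPM in knockdown. The 6 fibroblast markers summed to between 8.97 and 27.6 CPM in control and between 5.80 and 7.29 CPM in knockdown, the highest sum being that of control replicate 1, and 2 of the 3 that were tested fell. The 10 striated muscle markers summed to between 22.4 and 25.6 CPM in control and between 19.2 and 24.2 CPM in knockdown, almost wholly from TNNT1 and TTN, with MYH2 and MYOG at 0 reads. The 6 blood and endothelial markers summed to at most 3.0 CPM in any library, with PECAM1 and CDH5 at 0 reads.

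The region just upstream of a start site is shown for CKB and for 3 other members that were measured, since these genes differed in how they moved. Sequences are from GRCh37, the assembly that corresponds to the hg19 build of the processing notes, end at the base before the GENCODE canonical start site, and read 5′ to 3′ on the gene's strand. Capitals mark 3 promoter motifs wherever they occur on either strand: the TATA box (TATAAA), the core bound by NF-Y-type factors (CCAAT) and the core of a GC box (GGGCGG). The 250 bases before CKB lie on the minus strand at chr14:103989168-103989417. The 100 bases of the others lie on the plus strand at chrX:152953281-152953380 for SLC6A8, chr15:43985957-43986056 for CKMT1A and chr5:80529041-80529140 for CKMT2.
CKB: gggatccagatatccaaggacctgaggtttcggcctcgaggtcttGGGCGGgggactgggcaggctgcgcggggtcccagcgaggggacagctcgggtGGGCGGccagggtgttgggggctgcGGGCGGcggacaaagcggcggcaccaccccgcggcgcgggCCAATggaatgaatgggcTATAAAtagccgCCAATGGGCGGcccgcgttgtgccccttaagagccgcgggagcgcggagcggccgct
SLC6A8: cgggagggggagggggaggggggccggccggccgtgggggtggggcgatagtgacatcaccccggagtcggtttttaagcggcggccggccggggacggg
CKMT1A: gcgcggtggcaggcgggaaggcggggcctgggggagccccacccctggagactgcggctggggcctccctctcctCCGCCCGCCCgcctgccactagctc
CKMT2: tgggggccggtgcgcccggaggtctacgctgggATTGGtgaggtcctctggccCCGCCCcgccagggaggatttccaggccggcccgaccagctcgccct

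The CKB window held TATAAA at bases 69 to 64 before the start and CCAAT on each side of it, at bases 87 to 83 and 57 to 53. The second CCAAT ran directly into 1 of the 4 GGGCGG matches, that at bases 52 to 47. Of 19818 protein-coding promoters of the same 250 bases, 9.28% held TATAAA, 34.2% held CCAAT and 59.2% held GGGCGG. Neither TATAAA nor CCAAT was in the 250-base window of SLC6A8 or CKMT1A, and both were in that of CKMT2, with TATAAA at bases 146 to 141, outside the 100 bases shown. The 5-letter core ACGTG, found in 20.5% of promoters, was in the CKMT1A window, on both strands at bases 250 to 246 and 249 to 245, and not in those of CKB, SLC6A8 or CKMT2. The windows of CKMT1A and CKMT1B differed at 0 of 250 bases. GGGCGG was also in the other windows. SLC6A8 held it at bases 245 to 240, 211 to 206, 137 to 132 and 118 to 113, all outside the 100 bases shown. CKMT1A held it at bases 214 to 209 and 197 to 192, also outside those shown, and CKMT2 at bases 47 to 42. The 2 GGGCGG matches of CKMT1A nearest the start overlap, at bases 25 to 20 and 21 to 16. A match describes letters only and is not evidence of a bound factor.

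CKB is a gene of 8 exons on chromosome 14 (GRCh37, 103986004 to 103989170, minus strand). Controls 1 to 3 gave 2713, 2618 and 2343 counts, and the deeper knockdown libraries gave 1079, 1379 and 1480. In CPM these were 216, 208 and 198 in control and 75.3, 80.8 and 81.7 in knockdown. The lowest control library stood far above the highest knockdown library, and within a group the libraries were close. The control mean was 207 ± 8.69 CPM against a knockdown mean of 79.3 ± 3.47 CPM (SD over 3 libraries), and the fitted log2 fold change was -1.36 ± 0.04 (SE), a 2.56-fold lower level. In bulk RNA, fewer cells that express a gene and less of its RNA per cell cannot be told apart.

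Among the 13832 tested genes CKB ranked 423 by size of fall. CKB has a short transcript of 1420 nt with 64.1% GC, and when length and GC content were corrected for, its log2 fold change was -1.32. With counts thinned to the smallest library it was -1.36. Without control replicate 1, the library with the high fibroblast marker sum, it was -1.33. No 50-base window of its canonical transcript occurred in the transcript of another annotated gene, and no annotated gene overlaps it. Its nearest tested protein-coding neighbours, MARK3 and TRMT61A, had log2 fold changes of 0.00 and -0.03, with adjusted p-values of 0.993 and 0.593 in edgeR's quasi-likelihood test.

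**Figure D1:**
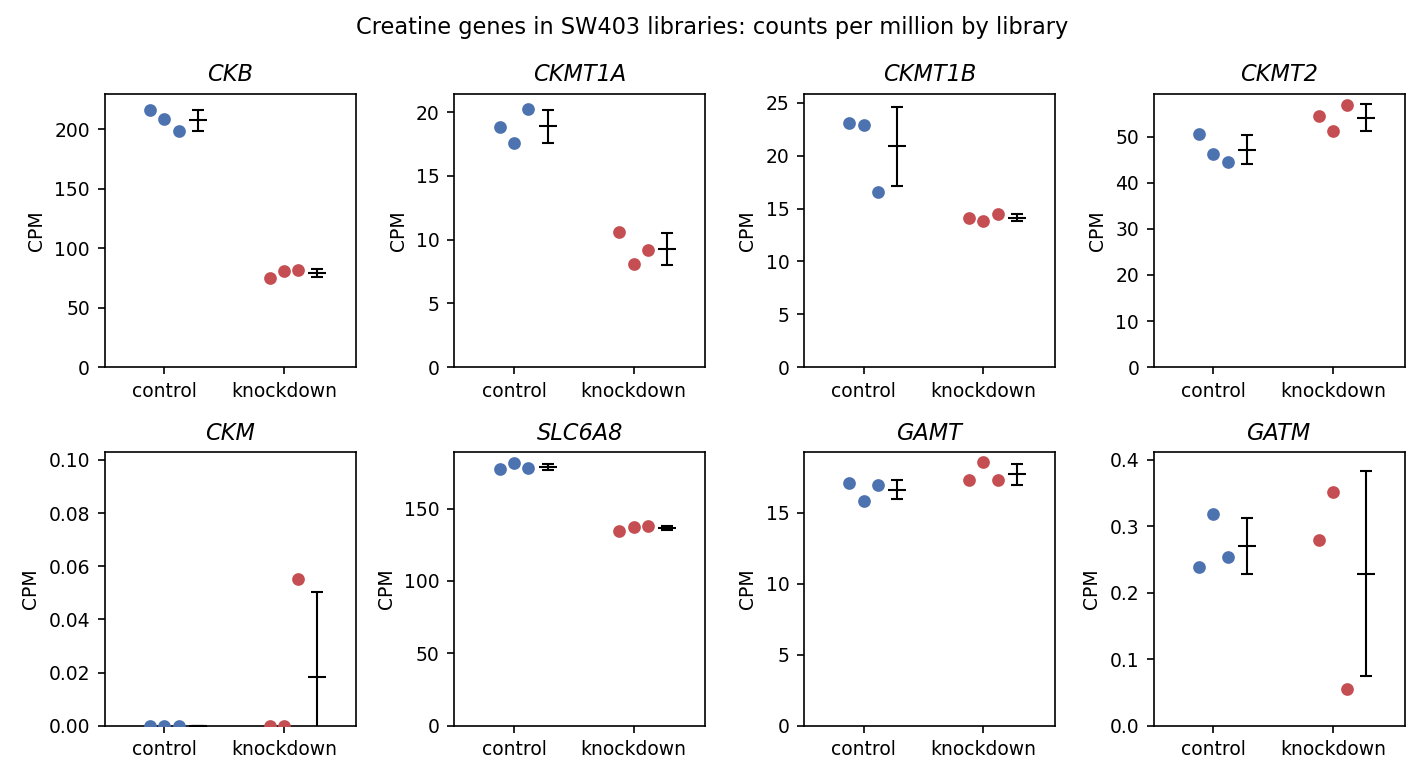
CPM (vertical axes, starting at 0, each panel on its own scale) of the 8 creatine genes in each library. Points are the 3 control (blue) and 3 knockdown (red) libraries, and the black mark beside them is the mean ± SD. CKB, both CKMT1 copies and SLC6A8 sit lower in every knockdown library, CKMT2 and GAMT slightly higher, and CKM and GATM near 0, where the lower end of the CKM knockdown bar runs below the axis.

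CKM, the muscle isoform, had 1 read in all, in knockdown replicate 3, and 0 in each of the other libraries. A count of 0 allows up to 3 counts, or 0.254 CPM in the shallowest library, and no fold was formed.

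The mitochondrial kinase of most non-muscle tissues is encoded by 2 near-identical genes on chromosome 15, CKMT1B (43885252 to 43897099) and CKMT1A (43985084 to 43991420), both on the plus strand. Their canonical transcripts are 1579 bases long and differ at 4 positions, 2 of them in the coding sequence. Those 2 are shown with 14 bases on each side, the differing base in capitals, because only reads that cross such positions can tell the copies apart. Positions count from the 5′ end of the transcript: G1248A and C1278T give the CKMT1A base, the position and the CKMT1B base. Both lie in exon 8 on the plus strand, at chromosome 15 positions 43990883 and 43990913 of CKMT1A.
CKMT1A at 1248: ctaagactccaaaaGcgtggtactggagg
CKMT1B at 1248: ctaagactccaaaaAcgtggtactggagg
CKMT1A at 1278: gtggacactgctgcCacaggcggtgtctt
CKMT1B at 1278: gtggacactgctgcTacaggcggtgtctt

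Of the 50-base windows of either transcript, 88.4% occurred in the other, so the split of reads between the copies is uncertain, and how such reads were counted is not given in the sources used here. CKMT1A had 18.8, 17.6 and 20.2 CPM in control and 10.6, 8.09 and 9.16 CPM in knockdown. CKMT1B had 23.1, 22.9 and 16.6 CPM in control and 14.1, 13.8 and 14.5 CPM in knockdown. Control replicate 3 stood apart in the split: its CKMT1A count was 1.22 times its CKMT1B count, against 0.814 and 0.767 in the other controls and 0.585 to 0.752 in knockdown. For each copy, the knockdown libraries lay below all controls.

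The sum of both copies does not depend on that split. If reads shared by the copies were dropped in counting, however, the sum understates their level. It was 42.0, 40.5 and 36.8 CPM in control and 24.7, 21.9 and 23.6 CPM in knockdown, with no overlap. The summed log2 fold change was -0.74 ± 0.07 (SE), 1.67-fold lower, with an adjusted p of 5.73e-08 in edgeR. Taken apart, CKMT1A had a log2 fold change of -1.0 ± 0.10 (SE; edgeR adjusted p 2.09e-07) and CKMT1B of -0.54 ± 0.10 (SE; edgeR adjusted p 0.000385).

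CKMT2, the mitochondrial form best known from striated muscle, moved the other way. It lies on chromosome 5 (80529139 to 80562217, plus strand) and had the second highest kinase level in these counts. That rank could differ if reads shared by the CKMT1 copies were dropped. CKMT2 had 50.6, 46.3 and 44.5 CPM in control and 54.4, 51.2 and 56.9 CPM in knockdown. The groups did not overlap, but control replicate 1 lay just under knockdown replicate 2. The log2 fold change was 0.23 ± 0.06 (SE), with an edgeR adjusted p of 0.0033. The antisense gene CKMT2-AS1 overlaps CKMT2 on the other strand and averaged 2.57 ± 0.772 CPM in control against 1.84 ± 0.279 CPM after knockdown (SD over 3 libraries), with an edgeR adjusted p of 0.163. The strand setting of the counting is not given in the sources used here, so reads from the stretch the pair shares cannot be told apart. The same limit holds for CKMT1B, whose gene span STRC overlaps on the opposite strand. Overlap was taken from whole gene spans, and whether exons overlap was not examined. Of the nearest tested protein-coding neighbours of CKMT2, RASGRF2 rose (log2 fold change 0.34, edgeR adjusted p 0.00695) and ZCCHC9 did not pass (-0.12, edgeR adjusted p 0.175).

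The makeup of the creatine kinase transcripts followed from these values. If reads shared by the CKMT1 copies were dropped, the CKMT1 share is too low and the other shares too high. Per kilobase of canonical transcript, the summed kinase level was 203 ± 9.80 CPM per kb in control and 107 ± 3.20 CPM per kb in knockdown (SD, n = 3 each). CKB made up between 71.4% and 72.3% of this sum in the control libraries and between 50.2% and 53.9% in the knockdown libraries. The CKMT2 share was 15.7% ± 0.381 in control and 34.2% ± 1.11 in knockdown, and that of the summed CKMT1 copies was 12.4% ± 0.276 and 13.8% ± 0.884 (SD, n = 3 each).

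**Figure D2:**
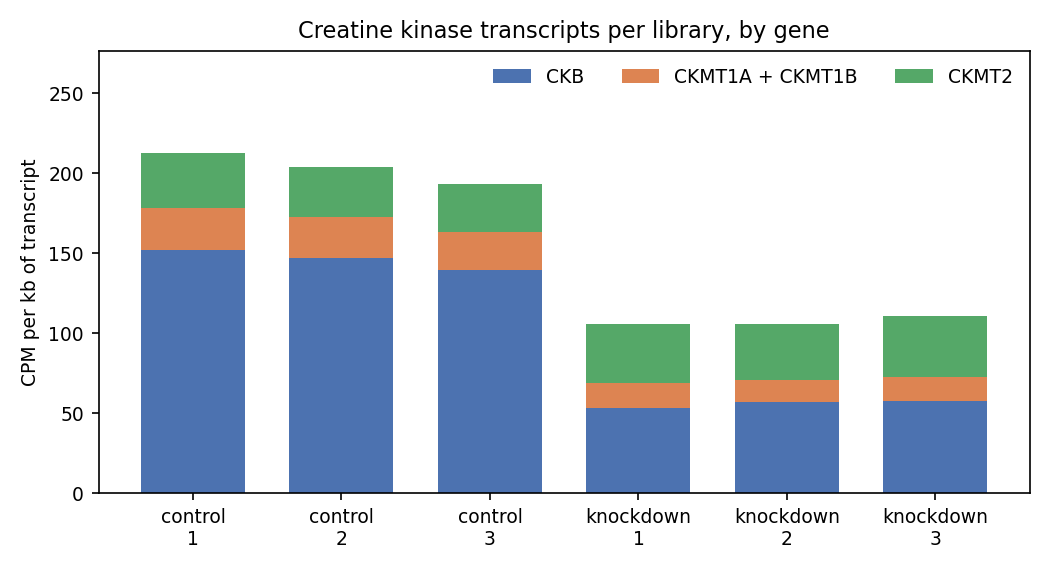
Stacked bars of creatine kinase transcripts in each of the 6 libraries, in CPM per kb of transcript (vertical axis from 0), split into CKB, the summed CKMT1 copies and CKMT2. The control bars reach 193 to 213 and the knockdown bars 105 to 111, and the CKB segment makes up most of the difference. The CKMT1 segment is too short if reads shared by the copies were dropped in counting.

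Ratios inside a library need no scaling between libraries. The ratio of CKB counts to summed CKMT1A and CKMT1B counts was 5.14, 5.14 and 5.39 in control and 3.05, 3.69 and 3.46 in knockdown. If reads shared by the CKMT1 copies were dropped, these ratios are too high. On the log2 scale the groups differed by -0.62, with SDs of 0.04 in control and 0.14 in knockdown (n = 3 each). CKB was chosen on this comparison, so the ratio is a description, and an exact two-sided permutation test of 3 against 3 libraries cannot go below p = 0.1. The ratio of CKB to CKMT2 counts was 4.26, 4.51 and 4.45 in control and 1.38, 1.58 and 1.44 in knockdown.

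SLC6A8, the sodium- and chloride-dependent creatine transporter, lies on the X chromosome (152953381 to 152962043, plus strand). It had 2229, 2277 and 2106 counts in control and 1929, 2344 and 2494 counts in knockdown, and only after division by the deeper knockdown totals did the groups separate. In CPM it was at 177, 181 and 178 in control and 135, 137 and 138 in knockdown. The groups lay far apart for their spread, with means of 179 ± 2.15 and 137 ± 1.68 CPM (SD over 3 libraries). Its log2 fold change was -0.36 ± 0.03 (SE), 1.28-fold lower, with an edgeR adjusted p of 1.13e-07. With counts thinned to the smallest library the value was -0.36, and after the length and GC correction it was -0.39. The gene span of PNCK overlaps that of SLC6A8 on the opposite strand, so reads from the shared stretch cannot be told apart either. PNCK did not pass (log2 fold change -0.45, edgeR adjusted p 0.269). BCAP31, the nearest tested neighbour on the other side, fell by 0.09 on the log2 scale (edgeR adjusted p 0.0305). The neighbours of the CKMT1 copies (CATSPER2, PDIA3 and PPIP5K1) and of GAMT (NDUFS7 and DAZAP1) did not pass the test.

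SLC6A8 has a pseudogene copy, SLC6A10P, and 10.6% of its 50-base windows occurred in the transcripts of SLC6A10P or of 2 unnamed genes. SLC6A10P had 5, 3 and 8 counts in control and 3, 4 and 6 in knockdown. SLC16A12, a carrier known to let creatine out of cells, had 0 counts in control and 2 in knockdown.

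GAMT, on chromosome 19 (1397025 to 1401569, minus strand), was at 17.1, 15.8 and 16.9 CPM in control and 17.3, 18.6 and 17.3 CPM in knockdown. Knockdown libraries were all higher, though control replicate 1 lay just under the nearest of them. The log2 fold change was 0.12 ± 0.08 (SE; 95% interval -0.04 to 0.28), and it did not pass the threshold (edgeR adjusted p 0.22). After the length and GC correction the adjusted p was 0.0618. GATM, which makes guanidinoacetate, had 3, 4 and 3 counts in control and 4, 6 and 1 in knockdown. Summed per group, these were 10 counts (95% Poisson interval 4.80 to 18.4) and 11 counts (5.49 to 19.7), or 0.271 and 0.222 CPM. Intervals cover counting error only. A difference in GATM was not detectable at this depth.

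**Figure D3:**
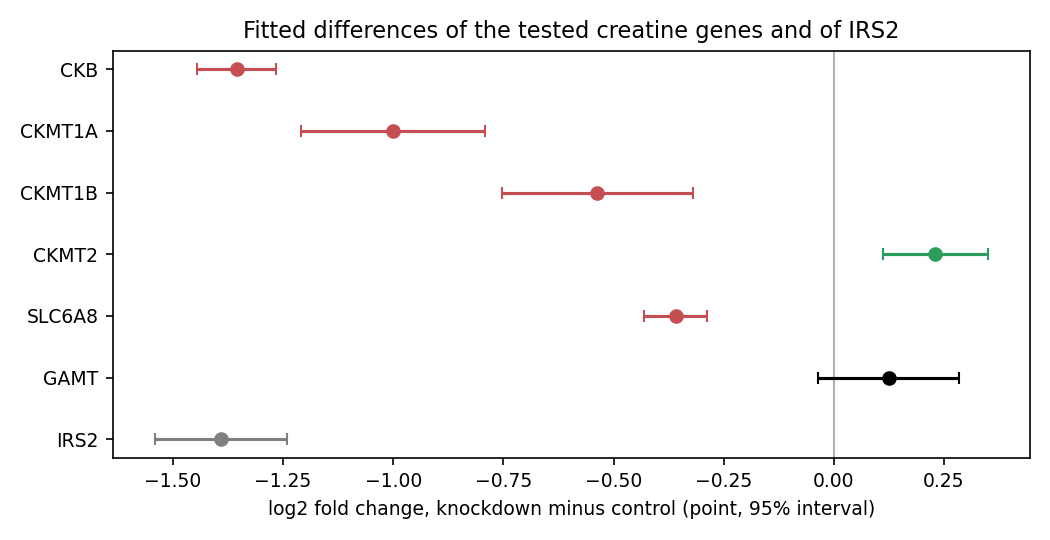
Fitted log2 fold changes (horizontal axis, knockdown minus control) of the 6 tested creatine genes and of IRS2, with 95% intervals from the edgeR fit. Intervals of CKB, CKMT1A, CKMT1B and SLC6A8 lie below 0, that of CKMT2 lies above 0, and that of GAMT spans it.

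Of the 6 tested members, 5 passed the threshold of 0.05 on the adjusted p (edgeR's quasi-likelihood test, over all genes): 4 lower (CKB, CKMT1A, CKMT1B, SLC6A8) and 1 higher (CKMT2). Among all tested genes, 38.5% passed, 19.2% lower and 19.3% higher, and nothing is read from the members' count because this comparison put the set forward. The CPM of the groups did not overlap for 6 of 6 tested members, 4 with knockdown below and 2 above. Over all tested genes this held for 48.4%, and for 28.8% with knockdown below. With CKMT1A and CKMT1B summed, 4 of 5 tested genes passed.

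The order of the levels differed between the groups. Per kilobase, control libraries held CKB at 146 ± 6.12, SLC6A8 at 45.5 ± 0.547, CKMT2 at 31.9 ± 2.13, GAMT at 15.0 ± 0.609, CKMT1B at 13.2 ± 2.36 and CKMT1A at 11.96 ± 0.834 CPM per kb (SD, n = 3 each). In knockdown the order was CKB at 55.8 ± 2.44, CKMT2 at 36.7 ± 1.92, SLC6A8 at 34.7 ± 0.427, GAMT at 16.0 ± 0.667, CKMT1B at 8.95 ± 0.202 and CKMT1A at 5.88 ± 0.801 CPM per kb (SD, n = 3 each). The ranges of GAMT and CKMT1B, and of CKMT1B and CKMT1A, overlapped in control, and those of CKMT2 and SLC6A8 overlapped in knockdown. The places of the CKMT1 copies also depend on how their shared reads were counted. GATM was far below the rest, at 0.115 and 0.0974 CPM per kb.

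The genes whose pattern lay nearest to that of CKB were then found among the 10448 genes that averaged 100 counts or more, by Euclidean distance of centred log2 CPM over the 6 libraries. The group difference dominates this measure, so it chiefly finds genes with a fall of like size. The nearest 5 were CSRP2, a LIM protein of the actin cytoskeleton (distance 0.203), IRS2 itself (0.205), the neurotrophin receptor gene NGFR (0.223), and the adhesion genes JAM3 (0.243) and ALCAM (0.286). IRS2 differed between groups by -1.39 ± 0.07 (SE) in log2, against -1.36 for CKB. The nearest 3 to SLC6A8 were the RNA helicase gene DHX37 (0.0503), the zinc finger gene ZNF362 (0.0504) and MKNK2, a kinase of translation factor eIF4E (0.0553).

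Genes that feed or surround the creatine system were compared in 8 lists written from general knowledge, with 97 genes of which 71 were tested. Of these, 20 were higher and 16 lower at an edgeR adjusted p under 0.05, 50.7% against 38.5% of all tested genes. The 16 include SLC6A11, which passed the expression filter only through the control libraries and is not read as a result. Their directions were mixed within each list. List medians ran from -0.06 to 0.07 on the log2 scale, beside 0.00 for all tested genes.

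**Figure D4:**
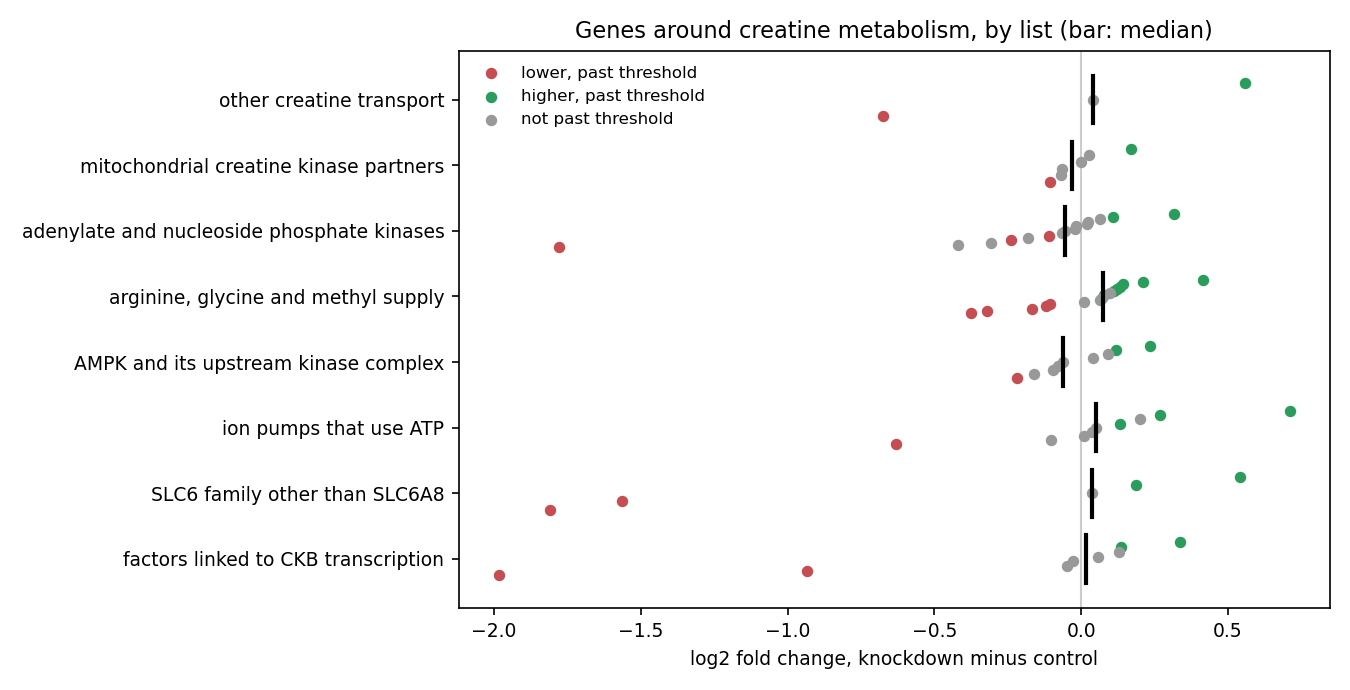
Log2 fold changes (horizontal axis, knockdown minus control) of the 71 tested genes in the 8 lists around creatine metabolism. Points are genes, red or green where they passed the threshold and grey where they did not, and black bars are list medians, which all lie near 0 while single genes reach -1.98 and 0.71.

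In the list of arginine, glycine and methyl supply, 7 of 16 tested genes rose and 5 fell. The risers included ASS1, which makes argininosuccinate on the way to arginine (27.1 ± 1.40 to 35.4 ± 0.417 CPM; log2 fold change 0.41), the mitochondrial arginase ARG2 (0.21) and MAT2A, which makes the methyl donor used by GAMT (0.13). The other risers were the arginine carrier SLC7A1, SHMT2, MAT2B and AHCY. Among the genes that fell were the methionine synthase MTR (72.3 ± 6.25 to 54.7 ± 2.97 CPM; log2 fold change -0.37) and the 3 serine synthesis genes PHGDH (-0.17), PSAT1 and PSPH. The calls of AHCY, MAT2B, PSAT1 and PSPH were each lost under some of the alternatives.

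Partners of the mitochondrial kinases moved little. VDAC1, the outer membrane channel, rose (log2 fold change 0.17, edgeR adjusted p 6.28e-05), and VDAC3 fell (-0.11, edgeR adjusted p 0.0376), a call lost under some alternatives. The other 4 tested genes, VDAC2 and the ATP/ADP carriers SLC25A4, SLC25A5 and SLC25A6, had log2 fold changes between -0.07 and 0.03 and did not pass. Among the adenylate and nucleoside phosphate kinases, which also pass phosphate between nucleotides, 2 of 15 rose and 3 fell. AK5, an adenylate kinase best known from brain, had the largest difference of the list, with 5.05 ± 0.540 CPM in control against 1.45 ± 0.253 CPM after knockdown (SD over 3 libraries). Its log2 fold change was -1.78 ± 0.20 (SE), at an edgeR adjusted p of 1.19e-06. CMPK1 rose (0.32) and NME4 fell (-0.24), while the calls of AK4 (0.11) and GUK1 (-0.11) were lost under some alternatives.

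Among the ion pumps, 3 of 9 rose and 1 fell. The endoplasmic reticulum calcium pump genes ATP2A3 (8.84 ± 0.957 to 14.2 ± 1.22 CPM; log2 fold change 0.71) and ATP2A2 (0.13) rose, as did the plasma membrane pump gene ATP2B1 (0.27), while ATP2B4 fell (-0.63). In the list of AMPK, the kinase that senses a fall in ATP, 2 of 9 rose, the catalytic subunit genes PRKAA2 (0.24) and PRKAA1 (0.12), and PRKAB1 fell (-0.22). The calls of PRKAA1 and PRKAB1 were lost under some alternatives.

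Of the SLC6 family other than SLC6A8, 5 of 18 genes were tested. SLC6A15, an amino acid carrier, fell from 16.8 ± 1.19 to 5.56 ± 0.308 CPM (SD over 3 libraries), by -1.56 ± 0.10 (SE) in log2 at an edgeR adjusted p of 1.04e-09. SLC6A11, a GABA carrier, had 16, 27 and 14 counts in control and 8, 5 and 8 in knockdown. It passed the expression filter only through the control libraries, so its place among the 2 lower genes of the list is not read as a result. The taurine carrier SLC6A6 rose (0.19), as did SLC6A4 (0.54), whose call was lost under some alternatives, and SLC6A9 did not pass (0.04). Of 3 tested genes of other organic cation, carnitine or creatine carriers, SLC47A1 rose (0.56), SLC16A9 fell (-0.68, a call lost under some alternatives) and SLC22A5 did not pass (0.04).

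A list of 12 factors was written from general knowledge as linked to creatine kinase transcription in other cells. A link of each factor to CKB itself was not checked. Of the 12, 8 were tested, of which 2 rose and 2 fell. MECOM, a zinc finger factor, averaged 3.95 ± 0.257 CPM in control against 0.980 ± 0.145 CPM after knockdown (SD over 3 libraries), a log2 difference of -1.98 ± 0.22 (SE) at an edgeR adjusted p of 1.01e-06. TFAP2A fell from 24.5 ± 2.07 to 12.5 ± 0.418 CPM (SD over 3 libraries), by -0.93 ± 0.08 (SE) in log2 at an edgeR adjusted p of 3.88e-08. HIF1A, a hypoxia-inducible factor, rose from 157 ± 1.53 to 194 ± 2.68 CPM (SD over 3 libraries), by 0.34 ± 0.03 (SE) in log2 at an edgeR adjusted p of 1.65e-07, and ESRRA rose by 0.13, a call lost under some alternatives. Among those that did not pass were EPAS1 (0.06), ARNT (0.13) and SP1 (-0.05). Whether any of these factors acts on CKB in SW403 cells was not tested.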

How the data were processed

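RNA-seq libraries of SW403 cells were analysed from 2 deposited tables. The first holds the authors' whole-number counts per gene symbol. The second holds a normalized signal, which the authors made by dividing the counts of each library by 1 constant (0.847 to 1.25), as tested on the files. STAR 2.6.1a, Salmon, DESeq2 and hg19 are named, per the submitters' processing notes, without roles. The annotation used, the strand setting and the read length are not given in the sources used here. Column names were matched to sample descriptions, with 0 per-sample columns unused.

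Knockdown was compared with control by edgeR 4.0.16 (R 4.3.3): TMM factors, filterByExpr, a quasi-likelihood fit over all genes with group as the only term, and Benjamini-Hochberg adjustment (threshold 0.05). The SE was obtained from the log2 fold change and the F statistic. CPM uses library totals. No replicate pair agreed within counting error (chi-square per degree of freedom 1.41 to 2.86). Loci, lengths and GC content come from GENCODE version 44 lifted to GRCh37, with 1 canonical transcript per gene. Coding and promoter sequences were read from the same annotation and genome. Scripts were checked on simulated counts.

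The members and gene lists were chosen with earlier results of these data known. Named genes were all members, list genes past the threshold (values for at most the 3 with the smallest p in each direction), IRS2 and the nearest patterns. List genes given below the threshold, values beyond those 3, the chromosomal neighbours, CKMT2-AS1 and the marker genes were chosen after the values were seen. A few list genes are counted but not reported by name here. Alternatives in scaling were library size alone, upper-quartile factors and relative log expression factors, all in edgeR. Other tests were DESeq2 1.42.0's Wald test and limma 3.58.1 (voom, or log2 of the deposited signal plus a pseudocount of 1 or 0.5). Further alternatives were other filters, thinning, a replicate block and a spline correction for length and GC content (95.8% of tested genes had both). The last were summing the CKMT1 copies, a threshold of 0.01, and leaving out each library.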

Additional observations from a re-analysis of the deposited data

How the results depend on the processing

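Under 21 alternatives, the log2 fold change of CKB ranged from -1.39 to -1.32 and that of SLC6A8 from -0.39 to -0.34, and 5 members passed in every alternative except the one that sums CKMT1A and CKMT1B, where 4 of 5 did. No other tested member crossed the threshold or changed sign: CKMT1A from -1.09 to -0.91, CKMT1B from -0.67 to -0.46, CKMT2 from 0.19 to 0.28 and GAMT from 0.08 to 0.18. All alternatives reuse the libraries on which CKB was chosen, so its place among the 5 members that passed is a description. Of all tested genes, 38.5% passed in the main fit, and 3572 of 15636 passed with DESeq2's Wald test. Leaving out each library gave -1.38 to -1.32 for CKB and -0.37 to -0.34 for SLC6A8. The log2 ratio of CKB to summed CKMT1 counts differed between groups by -0.69 to -0.55. In the fixed lists, 36 genes passed. With DESeq2's Wald test, at the same threshold of 0.05, the count was 24. At an adjusted p under 0.01 the count was 23, since that threshold is stricter, and when each library was left out it ran from 25 to 31. Of these 36 genes, 23 kept their call in all alternatives that could test them, 14 higher and 9 lower, and 13 lost it in at least one, with no change of direction. The 9 include SLC6A11, which passed the expression filter only through the control libraries, so its kept call is not read as a result. With the replicate number as a block, CKB had -1.36, SLC6A8 -0.36 and CKMT2 0.23, 5 members and 28 list genes passed, and 8 list genes lost their call. Deviations of same-numbered libraries correlated at 0.06, 0.09 and -0.12, and not every library correlated best with its own number, so the block was not used. Low counts limit what can be said of GATM and of CKM, which had 1 read in all. Without the filter, edgeR's quasi-likelihood test gave CKM and GATM adjusted p-values of 0.594 and 0.872, which so few reads leave uninformative.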
